A study of Mus musculus with 5 samples.

Results

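The genes that make cholesterol, control its synthesis and move it between compartments and cells were examined for histone H3 acetylated at lysine 9 (H3K9ac), a mark of active start sites. The set held 30 named genes, of which 29 are annotated in GENCODE vM1 among its 22380 protein-coding genes. Hmgcs1, which encodes the synthase that forms HMG-CoA, is not annotated there. Every peak centred at most 10 kb from one of a gene's transcript starts was counted for that gene. By this rule the 29 genes took 102 of the 34286 peaks of DOP-treated cells and 91 of the 33355 peaks of untreated cells.

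All cells were STHdh Q111 cells, conditionally immortalized striatal progenitors of C57BL/6 mice with the genotype STHdhQ111/Q111, in which both copies of huntingtin are mutant. Both conditions were kept without serum for 24 h, either in 4 mM 4-deoxypyridoxine hydrochloride (DOP), an inhibitor of the enzyme that cleaves sphingosine-1-phosphate, or in the vehicle DPBS, here called untreated. Each condition had 2 samples, and 1 sample immunoprecipitated with IgG served as negative control, for which no list was analysed here. The comparison asks whether the acetylated sites near these genes differ after DOP. Cells with wild-type huntingtin are not part of the ChIP-seq samples, so nothing here measures an effect of the mutation.

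Cholesterol is built from acetyl-CoA through mevalonate, farnesyl diphosphate, squalene and lanosterol. When sterols in the endoplasmic reticulum are low, SCAP carries the SREBP transcription factors to the Golgi apparatus, where they are cut and released to switch on synthesis and uptake genes, while INSIG proteins hold the complex back when sterols are high. SREBPs act together with NF-Y and Sp1 at promoters, and the LXR nuclear receptors switch on efflux genes when oxysterols accumulate. Brain cells make nearly all of their own cholesterol, and genes of this pathway are known to be lowered in the striatum in Huntington disease.

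The promoter sequence of these genes was not used to choose them, and the letters read in it are shown here first. Windows ran from 250 bases before to 50 bases after the 5' end of the gene in the NCBIM37 assembly (mm9), and both strands were searched for the NF-Y box CCAAT, the GC box GGGCGG, the E-box CACGTG, the sterol regulatory element TCACNCCAC and the LXR direct repeat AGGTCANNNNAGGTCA. The stretches below are the 150 bases upstream of the 5' end, free of annotated exons, read along the gene, with matches in capitals on either strand. They were chosen after their values were seen: Mvk for the most NF-Y boxes, Idi1 and Sqle for NF-Y boxes beside GC boxes, Hsd17b7 and Insig1 for an E-box, Srebf2 for the strongest peak and Apoe for having none.
Mvk promoter, chr5:114894128-114894277, plus strand: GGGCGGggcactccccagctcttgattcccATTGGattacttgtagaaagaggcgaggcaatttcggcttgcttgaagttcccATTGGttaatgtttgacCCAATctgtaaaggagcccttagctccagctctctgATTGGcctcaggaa
Idi1 promoter, chr13:8884702-8884851, plus strand: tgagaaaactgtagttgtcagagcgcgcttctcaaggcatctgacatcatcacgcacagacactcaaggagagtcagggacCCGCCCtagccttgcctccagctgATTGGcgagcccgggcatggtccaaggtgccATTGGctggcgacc
Sqle promoter, chr15:59146482-59146631, plus strand: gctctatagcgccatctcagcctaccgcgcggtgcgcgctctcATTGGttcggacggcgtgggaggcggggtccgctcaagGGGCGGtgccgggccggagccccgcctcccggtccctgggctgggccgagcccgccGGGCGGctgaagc
Hsd17b7 promoter, chr1:171899373-171899522, minus strand: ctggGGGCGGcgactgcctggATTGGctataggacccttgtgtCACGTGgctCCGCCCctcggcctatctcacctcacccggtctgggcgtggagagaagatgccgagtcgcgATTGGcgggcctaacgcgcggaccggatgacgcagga
Srebf2 promoter, chr15:81977546-81977695, plus strand: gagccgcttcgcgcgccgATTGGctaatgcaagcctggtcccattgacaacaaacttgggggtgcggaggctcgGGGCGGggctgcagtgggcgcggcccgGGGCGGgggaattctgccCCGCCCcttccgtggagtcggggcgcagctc
Insig1 promoter, chr5:28397802-28397951, plus strand: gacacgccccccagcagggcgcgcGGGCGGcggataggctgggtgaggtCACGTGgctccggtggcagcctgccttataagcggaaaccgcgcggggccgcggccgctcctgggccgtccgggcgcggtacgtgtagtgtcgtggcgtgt
Apoe promoter, chr7:20284516-20284665, minus strand: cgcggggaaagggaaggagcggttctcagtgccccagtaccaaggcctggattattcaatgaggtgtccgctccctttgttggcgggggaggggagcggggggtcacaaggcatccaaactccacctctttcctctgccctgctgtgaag
Mvk, which encodes mevalonate kinase, held 5 NF-Y boxes in its window, the most of any member. In Idi1 and Sqle the NF-Y boxes stood beside GC boxes, Hsd17b7 and Insig1 also carried an E-box, and the Apoe stretch held none of the motifs. The Apoe window did hold a GC box downstream of the start, with its first base at 42. The upstream stretches of Nr1h2 and Scap, which had peaks, held no NF-Y box, GC box or E-box either. That of Srebf1 held none too, but the peaks nearest to Srebf1 starts lay at internal starts and not at this 5' end.

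**Figure D1:**
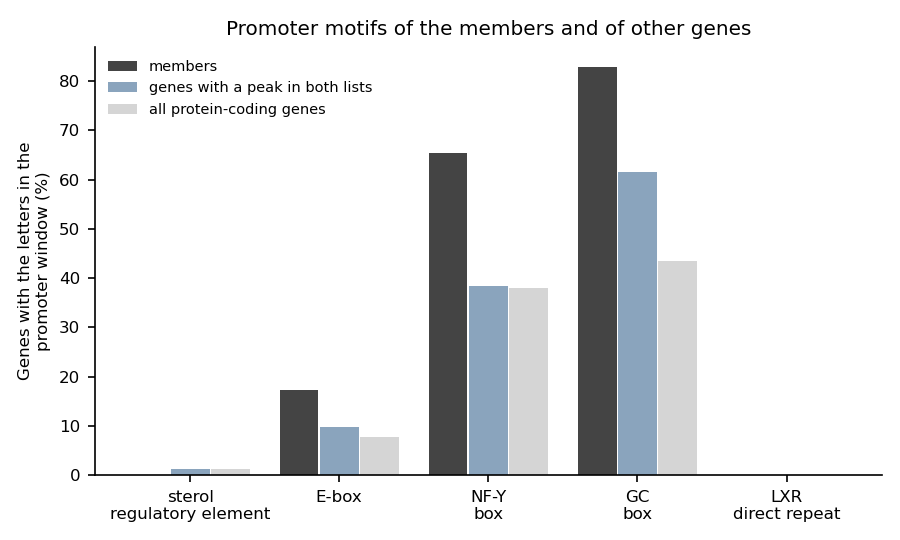
Share of genes, in percent, whose promoter window holds each motif on either strand, for the 29 members, the genes with a peak in both lists and all protein-coding genes. The members' bars stand at 65.5% for the NF-Y box and 82.8% for the GC box, and no member window held the sterol regulatory element or the LXR direct repeat.

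NF-Y boxes were found in 19 of the 29 windows (65.5%), against 37.9% of all protein-coding genes and 38.4% of the 12375 genes with a peak in both lists. At least 2 such boxes were present in 12 members (41.4%), against 12% of all genes and 14.2% of genes with peaks in both lists. GC boxes were found in 24 members (82.8%), against 43.4% and 61.6%, and 16 members (55.2%) had both motifs, against 16.3% and 23.8%. The GC content of the windows was close to that of acetylated genes, with a median of 60.3% in the members and 60.0% in genes with peaks in both lists. The E-box was found in 5 members, Hsd17b7, Sc5d, Scap, Insig1 and Abca1 (17.2%, against 7.78% and 9.81%). These shares are a description of the set, and no test was made of them. The CCAAT letters are short, and a match is a description of sequence and not a bound site.

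The sterol regulatory element was absent from all 29 windows in this spelling, which is found in 1.22% of all genes. The LXR direct repeat was found in no member window and in 0.00447% of all windows. The RefSeq promoters of GRCm38.p6 cover 25 of the 30 members, and there the element was found in 1, that of Hmgcs1, with its first base at -137 from the start. That stretch is shown with the element, the GC boxes and the NF-Y box in capitals.
Hmgcs1 promoter, GRCm38.p6, chr13:119690201-119690350, plus strand: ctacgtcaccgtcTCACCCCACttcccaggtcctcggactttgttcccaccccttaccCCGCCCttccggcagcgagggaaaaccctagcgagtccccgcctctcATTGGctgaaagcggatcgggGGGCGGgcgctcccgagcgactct
No peak could be assigned to Hmgcs1. The 300 bases of its RefSeq promoter had 0 exact matches on the assembled chromosomes of NCBIM37 and 2 on unplaced sequence, and the lists held 0 peaks on unplaced sequence. The acetylation of this gene could therefore not be read from these lists.

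The peak lists hold 1 call per condition, and replicate lists were not analysed here. The spread between replicates is therefore unknown, no test between conditions was possible, and intervals cover counting error only. Scores had a median of 418.7 after DOP and 399.8 without it. What the score counts is not given in the sources used here, so that a peak is described by its score percentile, which is the share of its own list that scored the same or lower. In a culture of many cells, a weaker mark in every cell and a mark carried by fewer cells cannot be told apart. Of 6 neural progenitor markers, Vim, Dlx1 and Dlx2 had DOP-treated peaks, and Vim and Dlx1 had untreated peaks, while Nes, Sox2 and Pax6 had none in either list. Of 6 mature neuron markers Ppp1r1b had 4 peaks in each list, of which 2 DOP-treated and 1 untreated were nearest to its own starts. The labelled progenitor identity thus rests on few of its markers. Among markers of other cells, Slc1a2 of 3 astrocyte genes and Aif1 of 3 microglial genes had peaks in both lists, those of Aif1 all nearest to other genes, and Apoa1 of 3 hepatocyte genes had 1 DOP-treated peak.

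Nearly all cholesterol genes carried H3K9ac at their start sites in both conditions. Of the 29 annotated members 28 had at least 1 peak in the DOP-treated list (96.6%, 95% Wilson interval 82.8% to 99.4%) and the same number in the untreated list, whereas over all protein-coding genes the shares were 57.7% and 56.9%. Apoe, which encodes the main lipid carrier of the brain and is chiefly an astrocyte gene, was the exception in both lists. Its nearest peaks were centred 15730 bp away in the DOP-treated list and 15667 bp away in the untreated list. Both lay nearest to a start of Tomm40, the neighbouring gene for a mitochondrial import channel, and ranked low, at percentiles 16.0 and 29.2.

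**Figure D2:**
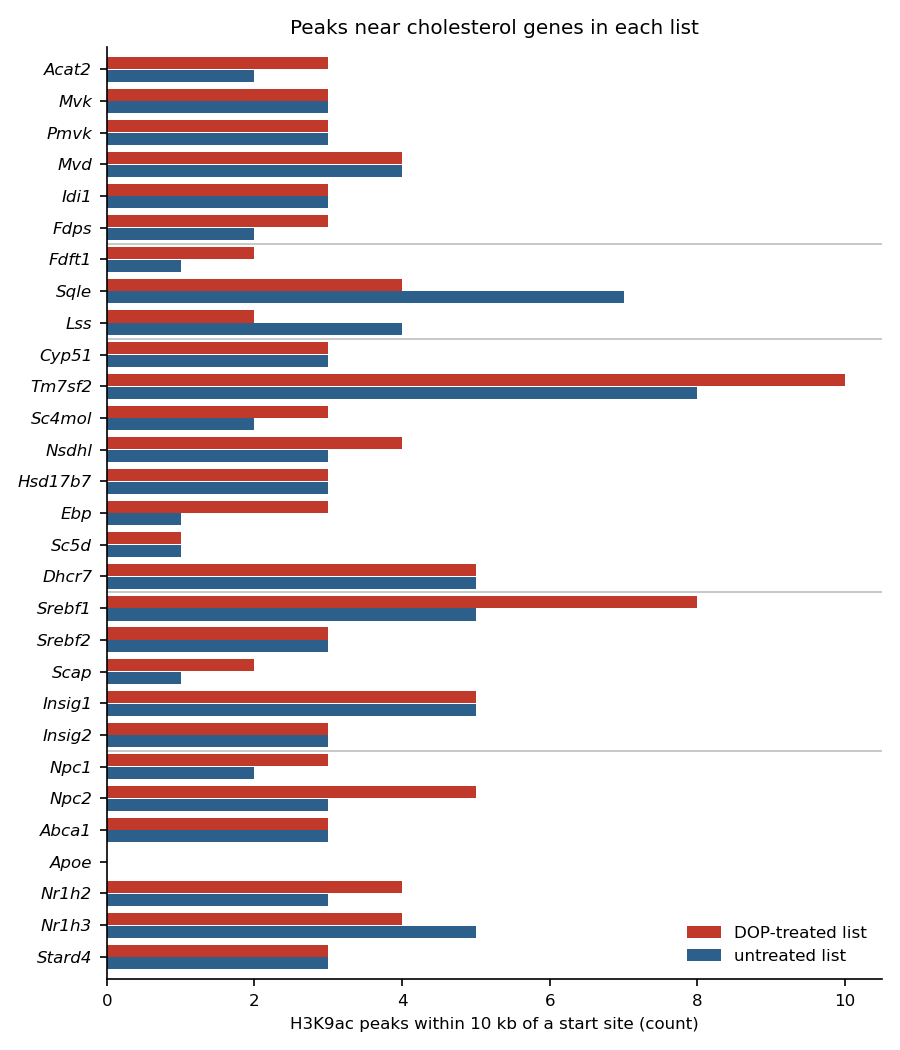
Number of H3K9ac peaks within 10 kb of a start site for each annotated member in the DOP-treated and the untreated list, with grey lines between the roles. Tm7sf2 has 10 and 8 peaks, Sqle has 4 and 7, and Apoe has none.

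Most members had the same number of peaks in both lists or differed by 1. The median was 3 peaks per gene in each list, which is also the median over all genes with a peak. More peaks in the DOP-treated list were found at 12 of 28 members (42.9%, Wilson interval 26.5% to 60.9%), against 32.5% of all genes with a peak. Fewer were found at 3 members, Sqle, Lss and Nr1h3 (10.7%, 3.71% to 27.2%), against 28.5%. Equal numbers were found at 13 members (46.4%, 29.5% to 64.2%), against 39.0%. The intervals for more and for equal numbers include the shares of all genes, and that for fewer ends at 27.2%, against 28.5%. They treat the genes as independent and come from 1 list per condition, so that they are no test of a difference. With peaks within 1 kb only, 5 of 28 members had fewer peaks, against 26.4% of all genes with a peak within 1 kb.

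The genes of the mevalonate steps had their main peaks at the same sites in both lists. Of the 6 annotated genes, 2 had more DOP-treated peaks, 4 had equal numbers and none had fewer. Of all genes with a peak, 32.5% had more, 39.0% equal numbers and 28.5% fewer. Acat2, the cytosolic thiolase that starts the path, had 3 DOP-treated and 2 untreated peaks, with highest percentiles of 60.4 and 63.0. Positions are given from the nearest start site of the gene, with negative values upstream. The additional Acat2 peak lay at -352 bp and ranked at percentile 34.4. Mvk had 3 peaks in each list, of which the highest, at 226 bp in the DOP-treated list and 198 bp in the untreated list, ranked at 78.5 and 72.6. A further Mvk peak, at -399 and -407 bp, was nearer to a start of Mmab, a gene of cobalamin metabolism that starts on the other side.

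Pmvk, the next kinase, had 3 peaks in each list within 15 bp of their counterparts, and its highest peak ranked at 82.6 and 79.5. Mvd, the decarboxylase that yields isopentenyl diphosphate, had 4 in each, and its highest peak ranked at 86.8 and 92.0. Idi1, the isomerase of that product, had 3 in each, with highest percentiles of 68.7 and 68.3. Fdps, which joins these units to farnesyl diphosphate, had 3 DOP-treated and 2 untreated peaks and was the highest of this group by score in the DOP-treated list, at 90.5, with 90.6 in the untreated list. Its additional DOP-treated peak, at -540 bp, ranked at 11.6. Across these genes the same strong sites were thus called in both lists, and the sites called in 1 list were weak.

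The steps from farnesyl diphosphate to lanosterol held the genes at both ends of the range of summed score ratios, Fdft1 and Sqle. Sqle, the squalene epoxidase, had 4 DOP-treated and 7 untreated peaks. Its strongest peaks were shared, at 256 bp with percentile 94.6 in the DOP-treated list and at 267 bp with 96.2 in the untreated list, and at 856 and 851 bp with 86.2 and 91.8. The peaks found in the untreated list only lay at -3543 bp (percentile 2.88) and at 1868 bp (31.4). The DOP-treated peak at -518 bp overlapped a pair of untreated peaks, at -583 and -473 bp with percentiles of 13.5 and 26.2. The Sqle difference of 3 thus lay in peaks of the lower 50% of the list.

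Lss, which closes squalene epoxide to lanosterol, had 2 DOP-treated and 4 untreated peaks. The DOP-treated peaks lay at -462 and 177 bp, and each was matched by 2 untreated peaks, at -610 and -397 bp and at 150 and 223 bp. The DOP-treated peak at 177 bp scored 873.0, and the untreated peaks beside it scored 291.0 and 510.0. The sums of the Lss scores were 1216 and 1032. The highest percentile of Lss was 82.4 against 61.0, but each DOP-treated peak overlapped more than 1 untreated peak, so that the count and the rank of its peaks were not independent. Fdft1, the squalene synthase, had 2 DOP-treated peaks and 1 untreated peak. Both lists shared the peak at -589 and -595 bp, and the DOP-treated list alone held one just downstream of the start with percentile 32.7. Its summed score of 743 against 385.3 was the largest difference among the members on the log2 scale, at 0.95. The untreated value is the score of 1 peak and is not a whole number. The single untreated scores of Sc5d, Scap and Ebp were whole.

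**Figure D3:**
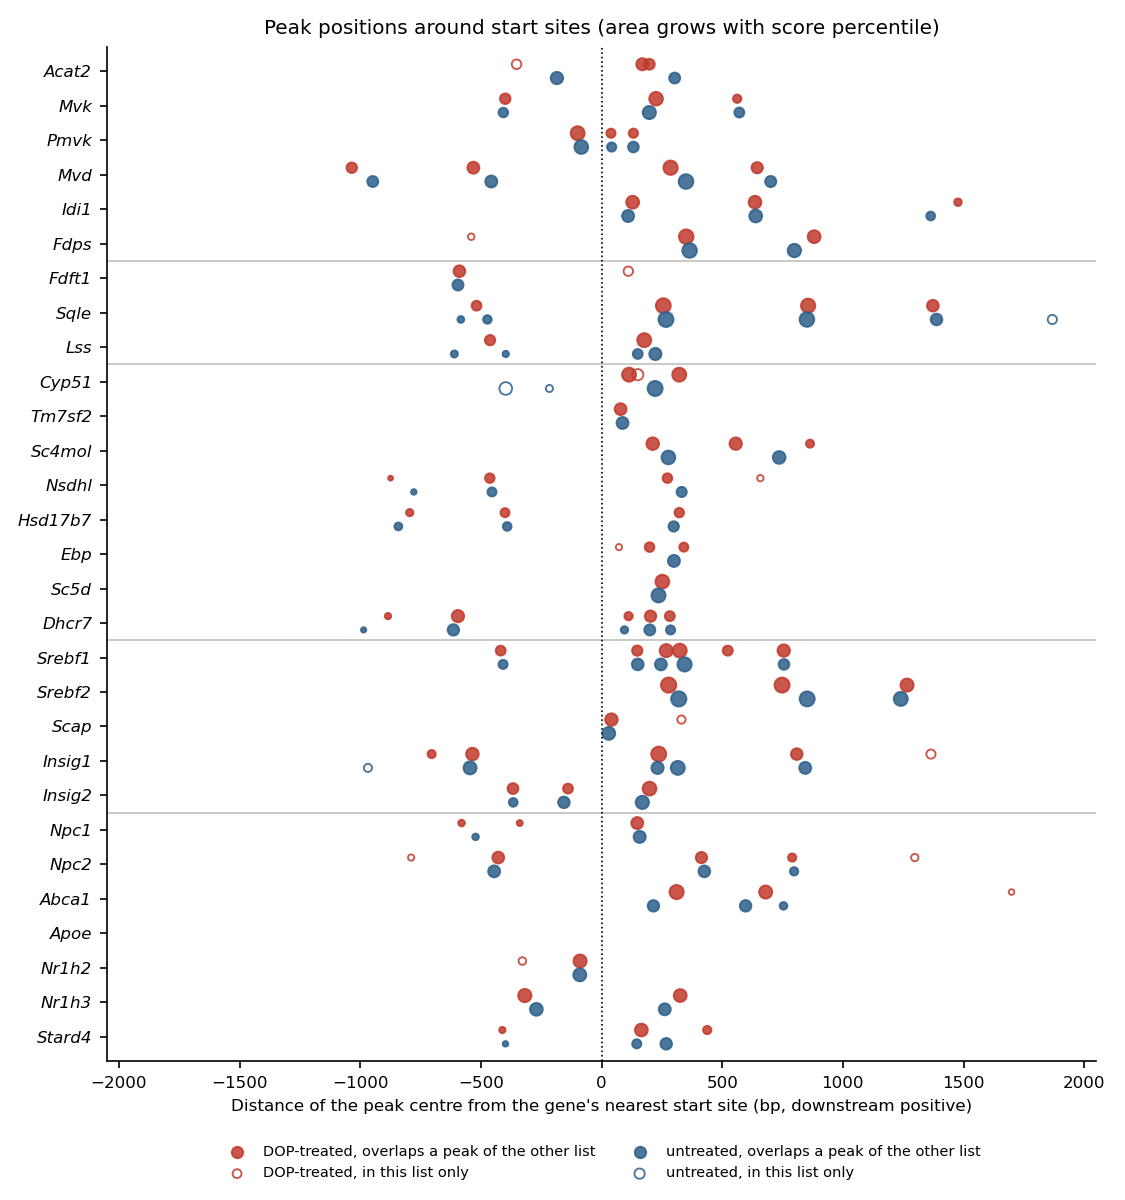
Distance in bp of each peak centre from the nearest start site of its gene, for the DOP-treated and the untreated list, with larger circles for higher score percentiles and open circles for peaks in 1 list only. Peaks farther than 2 kb from the start are not drawn, and most filled circles of one list have a partner in the other list within 100 bp.

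In the conversion of lanosterol to cholesterol the highest peak ranked lower in the DOP-treated list at 7 of 8 genes, against 43.8% of all genes with peaks in both lists. The summed score was larger in the DOP-treated list at 4 of the 8, against 68.1%. The count of 7 includes Cyp51 and Ebp, where 1 untreated peak overlapped a pair of DOP-treated peaks, and Tm7sf2, where the highest peak was nearest to another gene. The 8 genes had more peaks in that list in 4 cases, equal numbers in 4 and fewer in none. Cyp51, the lanosterol demethylase, had 3 peaks in each list, and its highest ranked at 82.9 and 96.8. Its DOP-treated peaks at 114 and 322 bp scored 886.7 and 879.4, and both overlapped a single untreated peak at 222 bp with a score of 1549.4. The summed scores of 2182 and 2247 were close. These peaks at 114, 322 and 222 bp are placed from an internal start. From the 5' end of the gene, a DOP-only peak lay at 150 bp with percentile 49.7, and an untreated-only peak at -216 bp with percentile 15.5. Cyp51 was also the gene with the strongest peak in 1 list only, at -397 bp from another internal start, in the untreated list with percentile 65.8. It lies in an intron and 243 bp from a DOP-treated centre, and its sequence holds none of the motifs. Like the other peak sequences given here, it was chosen after its values were seen.
Cyp51, untreated-only peak at -397 bp, chr5:4103679-4103878, minus strand: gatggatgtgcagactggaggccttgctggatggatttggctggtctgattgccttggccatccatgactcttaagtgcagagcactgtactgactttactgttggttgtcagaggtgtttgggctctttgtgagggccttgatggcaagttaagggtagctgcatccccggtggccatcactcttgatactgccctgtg

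Sc4mol (Msmo1), the methylsterol oxidase, had 3 DOP-treated and 2 untreated peaks, and its highest ranked at 65.5 and 79.6. Ebp, the sterol isomerase, had 3 and 1 peaks. Its DOP-treated peaks at 199 and 341 bp scored 291.2 and 251.8, and the single untreated peak at 300 bp scored 487.0. A weak DOP-treated peak at 72 bp, with percentile 9.61, had no untreated counterpart. At Ebp as at Cyp51, 1 untreated peak overlapped a pair of DOP-treated peaks. Counting only the upper 50% of each list by score turned the Ebp difference of 2 into -1.

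Nsdhl, the sterol dehydrogenase, and Hsd17b7, the sterol ketoreductase, were among the 3 members with the lowest highest peak in both lists. Nsdhl had 4 DOP-treated and 3 untreated peaks, with highest percentiles of 35.5 and 40.1. Hsd17b7 had 3 peaks in each list, with highest percentiles of 34.0 and 41.7. The other of the 3 was Ebp after DOP, at 35.3, and Fdft1 without it, at 48.5. Of the Nsdhl peaks, 2 in each list were nearer to a start of Cetn2, a centrin gene.

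Sc5d, the sterol desaturase, had 1 peak in each list, at 252 and 236 bp, with percentiles of 80.0 and 83.4. Dhcr7, the reductase of the last step, had 5 in each. Of these, 2 in each list were nearer to a start of Nadsyn1, among them the highest, at 62.1 and 52.7. The highest Dhcr7 peaks nearest to its own starts ranked at 52.4 and 48.4 and lay at an internal start, at 203 and 200 bp. Tm7sf2, a sterol reductase gene in a dense stretch of genes, had 10 DOP-treated and 8 untreated peaks. Only 1 of them in each list was nearest to its own start, at 79 and 87 bp with percentiles of 57.4 and 58.1. The others were nearest to 1110014N23Rik, Fau, Mrpl49 or Znhit2-ps, so that the difference of 2 at Tm7sf2 does not concern its own start site.

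Among the regulators, Srebf2 had the highest-scoring peak of all members in both lists. The other highest ranks were those of Insig1 after DOP and of Cyp51 without it, leaving aside the neighbours of Tm7sf2. Srebf2 encodes the SREBP that chiefly drives cholesterol synthesis, and its 3 peaks in each list lay at 278, 748 and 1266 bp and at 320, 852 and 1240 bp. The first ranked at percentile 99.8 in both lists, with scores of 2748.2 in the DOP-treated and 3138.9 in the untreated list. The second ranked at 96.8 and 96.5. The 200 bp of the second DOP-treated peak, which is free of annotated exons, held none of the motifs, in contrast to the GC-box-rich stretch upstream of the start.
Srebf2, DOP-treated peak at 748 bp, chr15:81978345-81978544, plus strand: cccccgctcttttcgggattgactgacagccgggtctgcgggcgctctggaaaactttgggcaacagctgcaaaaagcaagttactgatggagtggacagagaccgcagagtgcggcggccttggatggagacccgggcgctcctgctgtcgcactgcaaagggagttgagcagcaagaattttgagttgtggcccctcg

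Srebf1, which encodes the SREBP that favours fatty acid genes, had 8 DOP-treated and 5 untreated peaks, the largest excess in the DOP-treated list. The highest ranked at 81.8 and 85.8, at 324 and 344 bp. A DOP-treated peak at 523 bp overlapped the untreated peak at 344 bp, and the DOP-treated list also held peaks at -6746 and -5957 bp with percentiles of 5.65 and 4.9. These were nearer to a start of Tom1l2, lay in its 3' UTR and were over 8 kb from any untreated centre. The excess of 3 at Srebf1 thus consisted of 2 low peaks beside another gene and of 1 peak that overlapped a site found in both lists.

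Scap, the escort of the SREBPs, had 2 DOP-treated peaks and 1 untreated peak, with highest percentiles of 64.6 and 68.7. Its second DOP-treated peak lay at 331 bp and ranked at 23.5. Insig2 had 3 peaks in each list, with highest percentiles of 80.0 and 74.0, at an internal start. Insig1, itself a classical SREBP target, had 5 peaks in each list but differed in rank. The DOP-treated peak at 237 bp scored 1416.0 and ranked at 95.7, whereas the untreated list gave 2 peaks there, at 232 and 316 bp, with scores of 510.5 and 856.3. Each of the untreated peaks thus scored below the single DOP-treated peak that overlapped both. Insig1 also had 1 peak in each list that the other lacked, at 1365 bp in the DOP-treated list (percentile 31.0) and at -968 bp in the untreated list (22.3). The first lies in an intron, and its sequence is shown for a site called after DOP only.
Insig1, DOP-only peak at 1365 bp, chr5:28399218-28399417, plus strand: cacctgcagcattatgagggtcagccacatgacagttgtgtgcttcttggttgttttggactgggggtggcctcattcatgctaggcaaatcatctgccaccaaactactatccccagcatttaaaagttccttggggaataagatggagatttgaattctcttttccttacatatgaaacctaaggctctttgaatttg

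Genes of transport, efflux and LXR control had larger summed scores in the DOP-treated list at all 6 genes with peaks, against 68.1% of all genes with peaks in both lists. Their log2 ratios ran from 0.15 to 0.71, with a median of 0.30. Abca1, the transporter that exports cholesterol to apolipoproteins and a classical LXR target, had the largest of them. Its DOP-treated peaks at 311 and 680 bp scored 939.9 and 672.1, and the untreated peaks at 215, 597 and 754 bp scored 433.5, 434.9 and 159.6. The highest percentile was 85.0 against 53.8, a wider gap than at any other member. The sums were 1687 and 1028, and a DOP-treated peak at 1699 bp with percentile 6.83 had no untreated counterpart. The DOP-treated peak at 680 bp overlapped the untreated peaks at 597 and 754 bp. The highest DOP-treated peak, at 311 bp, overlapped only the untreated peak at 215 bp, and the 2 ranked at 85.0 and 53.6. These values differ between 2 separately called lists, with no replicate to test them. The sequence of its peak at 680 bp, in an intron, held none of the motifs.
Abca1, DOP-treated peak at 680 bp, chr4:53171988-53172187, minus strand: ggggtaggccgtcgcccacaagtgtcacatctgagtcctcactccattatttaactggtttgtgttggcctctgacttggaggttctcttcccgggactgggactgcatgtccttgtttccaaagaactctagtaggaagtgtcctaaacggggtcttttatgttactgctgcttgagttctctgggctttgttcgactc

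Nr1h2, which encodes LXR beta, had 4 DOP-treated and 3 untreated peaks. At its own start the main peak lay at -89 and -90 bp with percentiles of 72.3 and 70.4, and a DOP-treated peak at -328 bp ranked at 18.9. Its other peaks, 2 in each list, were nearest to Pold1, a DNA polymerase gene. There the untreated peak at 3424 bp lay between the DOP-treated peaks at 3189 and 3660 bp, 235 and 236 bp from their centres, and overlapped neither. Nr1h3, which encodes LXR alpha, had 4 and 5 peaks. Of these 1 in each list was nearest to its own start, at 326 and 262 bp with percentiles of 68.9 and 58.5, and the others were nearest to Acp2 or Madd.

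Npc1 and Npc2, which hand cholesterol out of the lysosome, had 3 and 2 peaks and 5 and 3 peaks. The highest Npc1 peak ranked at 58.8 and 60.1. The highest Npc2 peak ranked at 56.8 and 58.3 but was nearest to Isca2, and the highest at its own start ranked at 51.2 and 55.9. The additional DOP-treated Npc2 peaks lay at -789 and 1298 bp with percentiles of 10.2 and 17.1. Stard4, a carrier of sterol between membranes and an SREBP target, had 3 peaks in each list. Its highest DOP-treated peak, at 165 bp, scored 621.8 and ranked at 68.2, and the untreated peaks at 146 and 268 bp scored 243.9 and 435.1, each below it.

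**Figure D4:**
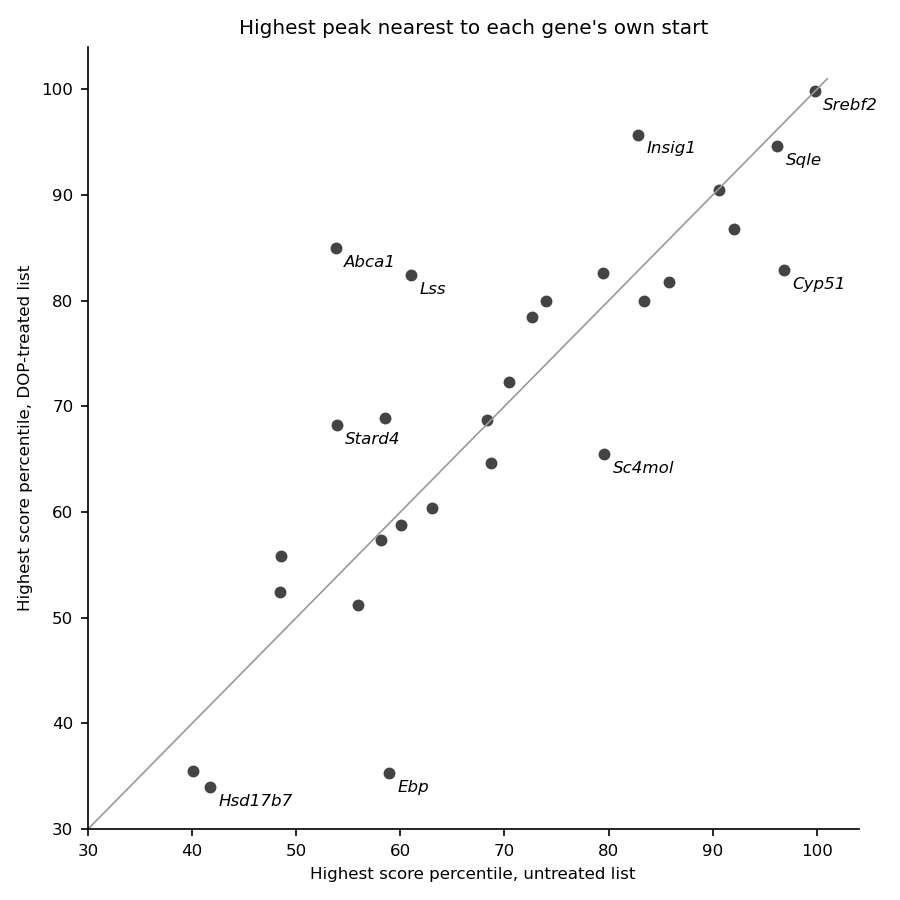
Highest score percentile among the peaks nearest to each gene's own start, in the untreated list (horizontal axis) and the DOP-treated list (vertical axis), 1 point per member with the line of equality. Abca1, Lss, Stard4 and Insig1 lie above the line and Ebp, Cyp51 and Sc4mol below it, and Srebf2 stands at 99.8 in both lists.

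The ranks of the members moved in both directions. Abca1, Lss, Stard4 and Insig1 had the widest gaps toward a higher rank in the DOP-treated list, and Ebp, Sc4mol and Cyp51 toward a lower one. At Lss, Stard4 and Insig1 the highest DOP-treated peak overlapped a pair of untreated peaks. At Ebp and Cyp51 the highest untreated peak overlapped a pair of DOP-treated peaks. Rank and number of peaks were therefore not independent at these genes. The highest percentile was higher in the DOP-treated list at 12 of 28 genes, against 56.2% of all genes with peaks in both lists, and lower at 16. The median of the difference within genes was -0.172 percentile points in the members and 0.633 over all genes. Median highest percentiles were 78.5 in the DOP-treated and 69.6 in the untreated list, while all genes with a peak had 78.4 and 77.3.

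Summed scores were larger in the DOP-treated list at 21 of 28 members, close to the 68.1% of all genes. The median log2 ratio of the sums was 0.17, against 0.10 over all genes with peaks in both lists, and 17 of the 28 members lay above that median. The range ran from -0.26 at Sqle to 0.95 at Fdft1, and the middle 50% of all genes ran from -0.04 to 0.27. By role, the median was 0.07 in the mevalonate genes, 0.24 from squalene to lanosterol, 0.04 from lanosterol to cholesterol and 0.19 in the SREBP regulators. These are sums of 2 lists that were scored separately, and each ratio is to be read against the all-gene median of 0.10.

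**Figure D5:**
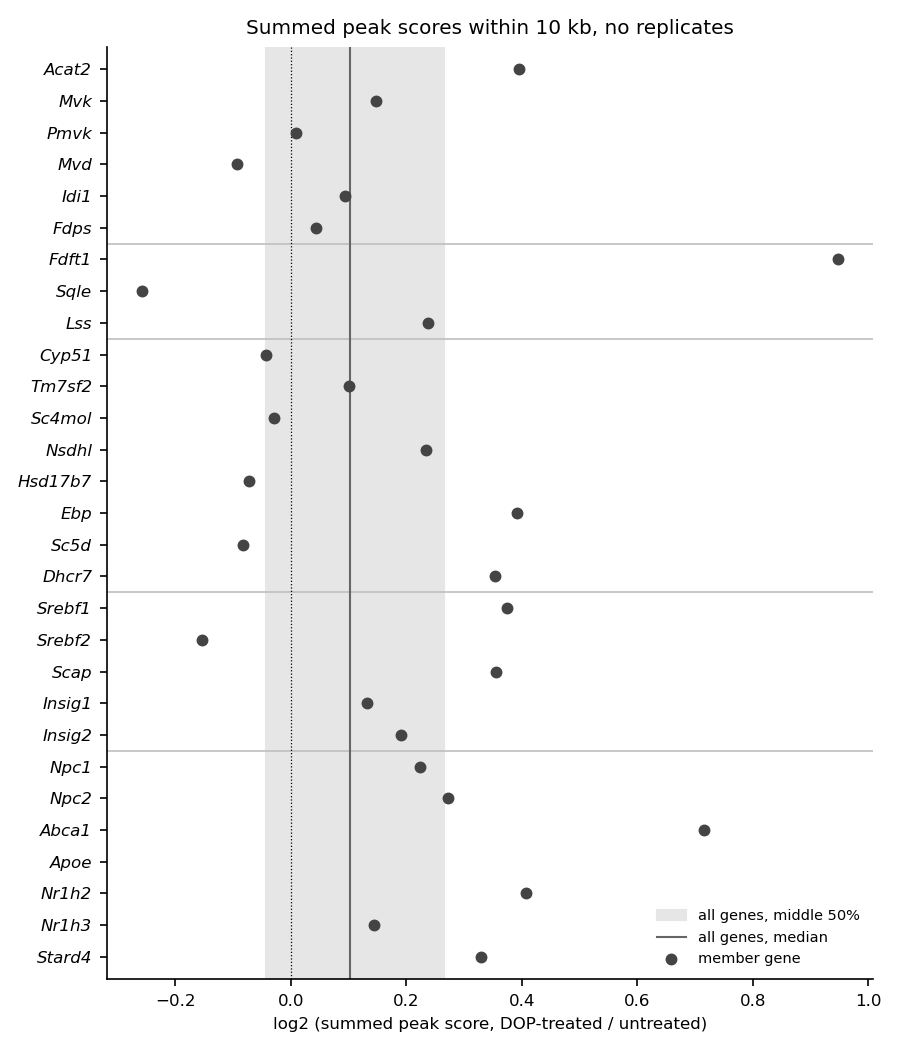
Ratio of the summed peak scores within 10 kb, DOP-treated over untreated, on a log2 scale, 1 point per member with no replicates. The grey band is the middle 50% of all genes and the grey line their median of 0.10, and Fdft1 and Abca1 lie farthest to the right at 0.95 and 0.71. The untreated sum of Fdft1 is the score of 1 peak.

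A minority of the members' peaks was found in 1 list only, for the DOP-treated list at about the share of all genes. Of the 102 DOP-treated peaks 16 overlapped no untreated peak (15.7%, Wilson interval 9.89% to 24.0%), against 16.2% of all DOP-treated peaks within 10 kb of a start. Of the 91 untreated peaks 6 overlapped no DOP-treated peak (6.59%, 3.06% to 13.6%), against 13.3%. They belonged to 13 genes in the DOP-treated list (46.4% of 28, against 36.7% of all genes with a peak) and to 4 in the untreated list (14.3%, against 30.8%). Their median percentile was 18 in the DOP-treated and 26.9 in the untreated list, against 22 and 22.7 for all such peaks near genes, and a single one of them, that of Cyp51, ranked above 50. A peak centre of the other list lay within 500 bp of 7 of the 16 and 5 of the 6. The only ones over 1 kb from any such centre were the Srebf1 pair beside Tom1l2 and the Sqle peak at -3543 bp.

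The members' peaks lay mostly within 1 kb of the start, with 80 of 102 DOP-treated (78.4%) and 74 of 91 untreated peaks (81.3%) there, against 86.9% and 87.7% of all peaks near genes. Among the peaks nearest to a member's own start, 39 of 79 DOP-treated (49.4%) and 34 of 72 untreated (47.2%) lay from 0 to 499 bp downstream, against 48.6% and 50% over all genes. In the 250 bp before the start lay 3.80% and 6.94%, against 9.34% and 9.13%. From -1000 to -251 bp lay 16 peaks in each list (20.3% and 22.2%), against 14.2% and 13.1%. Introns held 61.8% of the members' DOP-treated and 61.5% of their untreated peak centres, against 49.8% and 51.2% of all peaks near genes.

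The 19 members with an NF-Y box had 41 of them, and 0 fell inside a peak interval of either list. The boxes of Insig2 and Srebf1, whose own peaks lay at internal starts, were at least 4225 and 2289 bp from any centre. Over all genes with peaks in both lists, 3.6% of 7413 boxes fell inside a DOP-treated peak and 3.24% inside an untreated one, so that such an overlap was rare in general. The median distance from a members' box to the nearest centre was 320 bp in the DOP-treated and 358 bp in the untreated list. Centres of the other list lay close to the members' peaks, at a median of 41.5 bp from DOP-treated and 28.0 bp from untreated centres, against 44.0 and 42.0 bp over all genes.

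The other genes of the pathway were counted in the same way. Of 14 fatty acid genes driven by SREBP1, 14 had a DOP-treated and 13 an untreated peak, and 5 had more DOP-treated peaks, 4 fewer and 5 equal numbers. Of 24 other genes of sterol handling, 22 had a DOP-treated and 20 an untreated peak, and 11 had more, 7 fewer and 5 equal numbers. Over all protein-coding genes 57.7% had a DOP-treated and 56.9% an untreated peak. Of all genes with a peak, 32.5% had more DOP-treated peaks, 28.5% fewer and 39.0% equal numbers. All peaks counted for Ggps1 and Lcat were nearest to other genes. Abcg4, a sterol exporter of neurons and glia, had no peak in either list. No gene of these lists differed by 3 peaks or more. The median log2 ratios of the summed scores were 0.09 and 0.06, near the 0.10 of all genes.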

How the data were processed

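Histone H3K9ac was immunoprecipitated from 2 DOP-treated and 2 untreated samples of STHdh Q111 cells and sequenced single-end. Per the study's methods the reads were aligned to mm9 with Bowtie 2 and events were called with GPS, whereas the submitters' processing notes name BWA 0.7.10. The authors deposited 1 peak list per condition, as 200 bp intervals with a score whose definition is not given in the sources used here. Both lists hold more peaks than the study's methods state, and the reason is not given there. How the samples and the IgG control entered the call, the threshold and the depth per sample are not given there either.

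Peak centres were assigned to all protein-coding genes of GENCODE vM1 within 10 kb, and peaks of the lists were matched by an overlap of at least 1 bp. Scores were ranked within each list and summed per gene. Replicate numbers were not used, and no test was made. Wilson intervals (95%) cover counting error only. Promoters came from NCBIM37 and, for 25 members, from RefSeq (GRCm38.p6). All 30 members were named by role, and described in detail where a list had no peak, counts differed by 2 or more, or a peak was in 1 list only. The rule for sequences, promoters with a sterol regulatory element beside a peak, found none. The members and gene lists were chosen with earlier results of these data known. The alternatives were other windows, overlaps, score limits and gene assignments. One marker gene is not reported here. The functions were tested on simulated data. Python 3.11.15, pandas 2.3.3, numpy 2.4.6, scipy 1.17.1, pysam 0.24.0 and matplotlib 3.10.9 were used.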

Additional observations from a re-analysis of the deposited data

How the results depend on the processing

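The number of member genes with a peak did not depend on the choices by more than 1.5 times. Peaks in 1 list only depended on the rule. DOP-only and untreated-only peaks numbered 9 and 3 within 1 kb of a start, and 5 and 3 in the upper 50% of each list. They numbered 29 and 15 when a reciprocal overlap of 50% was asked. With centres within 500 bp counted as shared they were 9 and 1, and with centres within 1 kb 2 and 1. The shares of all peaks were not computed under these rules, so these counts cannot be set against those of all genes. The upper 50% of each list left 53 DOP-treated and 51 untreated peaks and a difference of -1 at Ebp. There 4 members had more DOP-treated peaks, against 25.2% of all genes with a peak in the upper 50% of a list. Within 1 kb 5 members had fewer DOP-treated peaks, against 26.4% of all genes with a peak within 1 kb. In the highest DOP-treated peak in place of the promoter, 1 member held the sterol regulatory element, 1 the E-box, 3 the NF-Y box and 4 the GC box. Over all 12910 genes with a DOP-treated peak the shares were 0.798%, 3.03%, 9.7% and 41.4%. The higher promoter shares of GC boxes and NF-Y boxes were thus not seen in these peaks. The element counted for Npc2 lay in a peak nearest to Isca2, and the GC box of Tm7sf2 in one nearest to Znhit2-ps. In RefSeq windows 1 member held the sterol regulatory element, against 1.44% of all genes. The other 63 values stayed within 1.5 times of the reported ones. Of the differences of single genes 143 kept their sign, 30 moved to or from equal numbers and 1 reversed. The 143 include genes that had equal numbers and stayed so, and Apoe, which had no peak. The causes were not tested. The counts of summed scores and of highest percentiles were repeated under settings chosen after seeing the data. No paired analysis was possible because a single list stands for both samples of a condition. The lists limit what can be said, since neither the depth nor the spread between the 2 samples of a condition is known.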

Other observations

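Scores summed over a gene were mostly whole numbers, at the members as over all genes, though most single scores were not. Among members with at least 2 peaks in a list, single scores were whole numbers, within 0.05, in 35.6% of their DOP-treated and 44.8% of their untreated peaks. In the same members the sums over a gene were whole in 26 of 27 for the DOP-treated and 24 of 24 for the untreated list. Over all genes with at least 2 peaks 90.7% and 90.3% of such sums were whole, and 35.5% and 34.8% of single scores. Why the sums were whole was not tested. The exception among the members was Srebf1, whose DOP-treated sum of 3194.1 includes the pair of peaks beside Tom1l2. Fdft1, with 1 untreated peak, was outside the untreated count, and its untreated score of 385.3 was not whole. The single untreated peaks of Sc5d, Scap and Ebp scored 872.0, 604.0 and 487.0. Whether an untreated peak is missing at Fdft1 was not tested. What the score counts is not given in the sources used here.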
